A study of Mus musculus with 11 samples.

Results

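Ribosome biogenesis and nucleolar genes encode the factors that transcribe ribosomal RNA, process and modify it, and fold it with ribosomal proteins into the small and the large subunit. A list of 42 such genes was read by gene symbol from the coding RefSeq features of each deposited table, and 39 of the 42 were measured in both tables, each by 1 feature. Fbl, Noc2l and Nolc1 were not analysed here. There were 48942 features in all for the Dcr libraries and 39889 for the cMyc libraries. A second list of 139 other ribosome assembly genes, of which 136 were measured, served for comparison.

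Ribosomal RNA is transcribed by RNA polymerase I in the nucleolus and is cut, methylated and pseudouridylated there with the help of small nucleolar RNPs (snoRNPs). The small subunit matures through a large early particle built around the U3 snoRNP, whereas the large subunit matures through a separate series of particles that pass from the nucleolus to the nucleoplasm. Many genes of this machinery are known targets of the transcription factor Myc, and rapidly dividing cells such as embryonic stem cells (ESCs) express them at high levels.

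The libraries were poly(A)-selected and made with the dUTP method, which keeps the strand, from mouse ESCs of strain 129S4/SvJae, which were kept on gelatin without feeder cells. There were 3 libraries from as many lines without Dicer, which cuts microRNAs from their precursors (Dcr KO lines 1, 3 and 4), and 2 from wild-type cells (Dcr WT libraries 1 and 2), all sequenced paired-end. Another pair was sequenced single-end, with 1 library from cMyc-/- cells (cMyc KO) and 1 from cMycf/f cells, whose alleles are floxed (cMyc flox). The labels used here do not state how each allele was deleted, whether a line is a single clone, or whether the wild-type libraries came from separate cultures. The 4 chromatin libraries were not analysed here.

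Depth was 247574902 to 278006158 reads in Dcr KO libraries and 101815723 and 206721717 in Dcr WT libraries, against 31633011 in cMyc KO and 24660365 in cMyc flox. Features of ribosomal RNA took 30.0% of the reads in cMyc KO and 28.1% in cMyc flox, and coding RefSeq features took 58.3% in cMyc KO and 59.7% in cMyc flox. In the Dcr libraries the share of ribosomal RNA was 0%, but whether its features were counted there was not examined. The ribosomal RNA content of the Dcr and cMyc libraries can therefore not be compared. Dicer1 fell in Dcr KO (log2 fold change −1.17 ± 0.15, SE; limma adjusted p = 0.000556), and so did Myc, with a normalised read count of 1253, 1054 and 443 in Dcr KO lines 1, 3 and 4, against 10984 and 7478 in Dcr WT libraries 1 and 2. Myc had 12 reads in cMyc KO and 446 in cMyc flox, a ratio of normalised read counts of 0.0231 (95% counting interval 0.0119 to 0.0408). Of 8 ESC markers, 1 was lower in Dcr KO and 0 were higher, and their summed counts ranged from 927216 to 1088824 in Dcr KO and from 922878 to 1051944 in Dcr WT. Of 7 fibroblast markers, 6 were lower in Dcr KO and 1 was higher. Their sums were 2111 to 6004 in Dcr KO, against 29353 to 41694 in Dcr WT, and 12195 in cMyc KO against 8883 in cMyc flox, and no marker was at 0 in any of the libraries of the Dcr table. Of 5 primitive endoderm markers 2 were lower and 0 higher, and of 4 neural and 4 trophoblast markers 1 of each list was lower and 2 were higher. The part that these markers' cells play in the results below was not tested. In bulk libraries, fewer cells of a type and less RNA per cell cannot be told apart. Values are relative within a library, so the total RNA of a cell was not measured.

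The question here is whether the ribosome biogenesis genes changed with the loss of Dicer. Of the 39 genes, 9 were lower in Dcr KO, 1 was higher and 29 did not pass the test (limma, Benjamini-Hochberg adjusted p under 0.05 over all 42358 features tested). The 9 were Nip7, Mrto4, Rrp9, Wdr12, Heatr1, Ddx21, Nop16, Rcl1 and Rrs1, and the 1 was Polr1a. The share of genes lower, 23.1%, stands beside 14.8% of all features, 22.9% of coding RefSeq features, and 14.5% of the 5779 coding RefSeq features whose mean level was at or above that of the least abundant gene of the list. The term matched level, used below, means this floor only. For higher calls, the 1 gene, or 2.56%, stands beside 16.9%, 20.9% and 27.8% in the same 3 backgrounds. The median log2 fold change of the 39 genes was −0.21, against 0.08 over all features, −0.06 over coding features and 0.12 over coding features at matched level, and 29 of the 39 values were negative. At an unadjusted p under 0.05, limma placed 14 lower and 3 higher. The share of all features at that threshold was not computed, so these counts stand without a background.

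All 3 Dcr KO lines lay below both Dcr WT libraries for 16 of the 39 genes, and above them for 2, Nop58 and Polr1a. Of all features 27.4% lay below in this way and 30.0% above, of coding features 35.5% and 31.3%, and of coding features at matched level 24.7% and 40.9%. For the other 21 genes the genotypes overlapped. Nip7, Mrto4 and Rrp9 were the genes called in each of 17 alternative settings. Without the trend in limma's variance prior these 3 were the only ones of the 10 past the threshold (limma adjusted p = 0.0503 for Wdr12 and 0.0724 for Polr1a). Without Dcr KO line 3, 4 of the 9 lower calls were made, and without line 4, 5.

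The RNA polymerase I group, with 4 genes, held the single rise and no fall. Polr1a, the largest catalytic subunit of the polymerase, had a normalised read count of 62026, 60363 and 49786 in Dcr KO lines 1, 3 and 4, against 35457 and 32614 in Dcr WT libraries 1 and 2. Every Dcr KO line stood above both Dcr WT libraries. The mean was 57392 ± 6639 (SD, n = 3) in Dcr KO and 34036 ± 2010 (SD, n = 2) in Dcr WT, which is 0.75 ± 0.15 (SE) as a log2 fold change (limma adjusted p = 0.00504). Polr1b, the second-largest subunit and the catalytic partner of Polr1a, stood at 36026 ± 5325 in Dcr KO and 36517 ± 2091 in Dcr WT without a call (−0.03 ± 0.16 as a log2 fold change, limma adjusted p = 0.904). Mybbp1a, a nucleolar Myb-binding protein and one of the most abundant genes of the list, had 265318, 231979 and 182902 in Dcr KO lines, against 243906 and 203685 in Dcr WT libraries. These values overlapped, and the log2 fold change was 0.01 ± 0.18 (limma adjusted p = 0.978). Tcof1, which encodes treacle, a nucleolar factor of rDNA transcription, had 122453, 114422 and 98816 in Dcr KO lines against 104279 and 72732 in Dcr WT libraries. Its log2 fold change of 0.36 missed the threshold (limma adjusted p = 0.160). It passed without Dcr WT library 1 (0.62, limma adjusted p = 0.00862), a fit that leaves 1 wild-type library and assumes that it varies like the other libraries. Without Dcr WT library 2 it was 0.096 (adjusted p = 0.692).

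Of the 4 snoRNP genes measured, Rrp9 fell and the core proteins did not pass. Rrp9, the protein particular to the U3 snoRNP that guides the early cuts of the small-subunit RNA, had 13231, 12310 and 10786 in Dcr KO lines 1, 3 and 4, against 27967 and 23058 in Dcr WT libraries 1 and 2. The highest Dcr KO value was below the lowest Dcr WT value. Its mean was 12109 ± 1235 (SD, n = 3) in Dcr KO and 25513 ± 3471 (SD, n = 2) in Dcr WT, which is −1.07 ± 0.15 (SE) as a log2 fold change (limma adjusted p = 0.00102). Nop58 and Nop56 are the paired core proteins of the box C/D snoRNPs, the methylation guides. Nop58 had 48961, 48381 and 38749 in Dcr KO lines, against 33417 and 33392 in Dcr WT libraries, without overlap. Its log2 fold change of 0.43 ± 0.15 lay at the edge of the threshold (limma adjusted p = 0.0517), and it passed without line 4 (0.54, limma adjusted p = 0.0340), with edgeR (0.45, adjusted p = 0.0440) and with DESeq2 (0.44, adjusted p = 0.0395), but not without line 1 (0.37, limma adjusted p = 0.158) or line 3 (0.38, 0.203). Nop56 had a log2 fold change of −0.20 ± 0.20 (limma adjusted p = 0.489), and Dkc1, the pseudouridine synthase of the box H/ACA snoRNPs, 0.08 ± 0.15 (limma adjusted p = 0.716).

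Of the 15 small-subunit genes, 2 fell (13.3%), 0 rose and 13 did not pass. This share was below the 14.8% of all features, 22.9% of coding features and 14.5% of coding features at matched level. At an unadjusted p under 0.05, again without a share over all features, limma placed 4 lower and 0 higher. Heatr1, the counterpart of a yeast protein of the first complex to bind the nascent ribosomal RNA, had 53134, 44889 and 32724 in Dcr KO lines 1, 3 and 4, against 75074 and 67037 in Dcr WT libraries 1 and 2. The groups did not overlap, although the Dcr KO lines differed widely among themselves. The log2 fold change was −0.73 ± 0.20 (SE; limma adjusted p = 0.0209). The call was lost without line 3 (adjusted p = 0.0726) and without line 4 (0.0550). Rcl1, whose yeast counterpart takes part in an early cut of the precursor, had 14939, 13821 and 11890 in Dcr KO lines, against 21383 and 18183 in Dcr WT libraries. Again every Dcr KO line lay below both Dcr WT libraries, with a log2 fold change of −0.55 ± 0.15 (limma adjusted p = 0.0241). This call was lost without line 3 (adjusted p = 0.0896), line 4 (0.0799) or Dcr WT library 1 (0.0657).

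The other 13 small-subunit genes had log2 fold changes between −0.49 (Bysl) and 0.26 (Pno1). Bysl, the counterpart of yeast Enp1, and Rrp12, an export factor in yeast, lay below Dcr WT in every line but missed the threshold (limma adjusted p = 0.0618 and 0.0954). Both passed without Dcr WT library 2 (Bysl −0.67, limma adjusted p = 0.0109; Rrp12 −0.47, 0.0499). Wdr75 and Wdr43, which sit with Heatr1 in the first complex, had −0.30 and −0.07, and the 18S acetyltransferase Nat10 had −0.24. Noc4l, Nol6, Utp20 and Imp4 had −0.22, −0.21, −0.04 and −0.01, and each of these 4 and Wdr43 changed sign with 1 library left out. None of these 7 genes passed (limma adjusted p = 0.202 for Wdr75, the lowest). The factors of the last cytoplasmic steps had values on both sides of 0, namely −0.11 for Nob1, the endonuclease that makes the 3′ end of 18S RNA, 0.26 for its partner Pno1, 0.24 for Tsr1 and 0.21 for Ltv1. None of these 4 passed, with limma adjusted p between 0.272 (Tsr1) and 0.576 (Nob1).

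The large-subunit group held the most falls, 5 of 12 genes (41.7%), with 0 rises and 7 genes that did not pass. Its median log2 fold change was −0.45. Lower calls took 14.8% of all features, 22.9% of coding features and 14.5% of coding features at matched level. Nip7, a factor that binds the precursor of the large subunit in yeast and human cells, changed the most of the 39 genes. It had 7518, 6380 and 6146 in Dcr KO lines 1, 3 and 4, against 19345 and 24870 in Dcr WT libraries 1 and 2. Each Dcr KO value was less than the smaller Dcr WT value by a wide margin. The mean was 6681 ± 734 (SD, n = 3) in Dcr KO and 22108 ± 3907 (SD, n = 2) in Dcr WT, so that Dcr KO held 0.302 times as much, or −1.72 ± 0.16 (SE) as a log2 fold change (limma adjusted p = 0.000125). Over the 17 alternative settings this log2 fold change stayed between −1.902 and −1.427.

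Mrto4, a nucleolar relative of the ribosomal stalk protein P0 that holds the place of P0 on the immature subunit, had 5247, 4204 and 4066 in Dcr KO lines, against 11397 and 8576 in Dcr WT libraries. The groups were apart, with a log2 fold change of −1.14 ± 0.18 (limma adjusted p = 0.00163). Wdr12 forms the PeBoW complex with Pes1 and Bop1, which is needed for cutting the large-subunit precursor. It had 7084, 6267 and 5673 in Dcr KO lines, against 11014 and 12983 in Dcr WT libraries, and fell with a log2 fold change of −0.92 ± 0.16 (limma adjusted p = 0.00236). Its partners did not pass: Bop1 had −0.46 (limma adjusted p = 0.0552) and Pes1 −0.14 (limma adjusted p = 0.554). Bop1 lay below both Dcr WT libraries in every line and passed without Dcr WT library 2 (−0.60, limma adjusted p = 0.0139), whereas Pes1 overlapped.

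Nop16 and Rrs1 were closer to the threshold. Nop16, a component of the early large-subunit particle, had 8191, 7616 and 6247 in Dcr KO lines, against 10181 and 11280 in Dcr WT libraries, with a log2 fold change of −0.55 ± 0.16 (limma adjusted p = 0.0268). The call was lost without line 3 (adjusted p = 0.0860), line 4 (0.0796) or Dcr WT library 2 (0.0565). Rrs1, which in yeast helps to place the 5S RNP on the large subunit, had 7889, 8496 and 7489 in Dcr KO lines, against 11010 and 12179 in Dcr WT libraries, with −0.54 ± 0.14 (limma adjusted p = 0.0167). It was not called without any one of the Dcr KO lines (adjusted p = 0.0608 without line 1, 0.0575 without line 3 and 0.0568 without line 4). Neither gene's groups overlapped. Of the remaining 5 large-subunit genes, Grwd1, a chaperone of a ribosomal protein in yeast, had −0.44 (limma adjusted p = 0.0791), and it passed without Dcr WT library 2 (−0.55, adjusted p = 0.0333). Ppan had −0.25 (limma adjusted p = 0.354) and −0.54 without that library (adjusted p = 0.0296), but 0.034 without Dcr WT library 1 (adjusted p = 0.903). Noc3l, the methyltransferase Nop2 and the methyltransferase Ftsj3 had −0.30, −0.20 and 0.06, with limma adjusted p of 0.199, 0.365 and 0.767.

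Among the 4 other nucleolar proteins (Ddx21, Gnl3, Ncl and Npm1), 1 fell. Ddx21, a nucleolar RNA helicase, had 73306, 65820 and 54101 in Dcr KO lines 1, 3 and 4, against 102802 and 98667 in Dcr WT libraries 1 and 2. The groups did not overlap, and the log2 fold change was −0.66 ± 0.16 (SE; limma adjusted p = 0.0125), which was lost without line 3 (adjusted p = 0.0630). Gnl3, or nucleostemin, lay below Dcr WT in every line without passing (−0.38, limma adjusted p = 0.0864; without Dcr WT library 1 −0.51, adjusted p = 0.0276). With the other Dcr WT library left out instead, Bop1, Bysl, Grwd1, Rrp12 and Gnl3 were negative and did not pass (limma adjusted p between 0.168 for Bop1 and 0.271 for Gnl3). Nucleolin and nucleophosmin are the most familiar nucleolar proteins, and both differed more than 1.5-fold between the Dcr WT libraries, which held for no other gene of the 39. Ncl had 365144, 359838 and 303002 in Dcr KO lines, against 199066 and 303550 in Dcr WT libraries. Npm1 had 69823, 74162 and 58532 in Dcr KO lines, against 47694 and 119051 in Dcr WT libraries, so that all 3 Dcr KO lines lay between the wild-type libraries. The log2 fold change of Ncl was 0.47 ± 0.20 (limma adjusted p = 0.0917). It was 0.78 without Dcr WT library 2 (adjusted p = 0.00224) and 0.17 without Dcr WT library 1 (adjusted p = 0.463). For Npm1 it was −0.17 ± 0.31 (limma adjusted p = 0.715), and it was −0.83 without Dcr WT library 1 (adjusted p = 0.00115) but 0.49 without Dcr WT library 2 (adjusted p = 0.0343). Mouse Npm1 has processed copies elsewhere in the genome, so its count may be uncertain; reads shared with them were not tested.

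**Figure D1:**
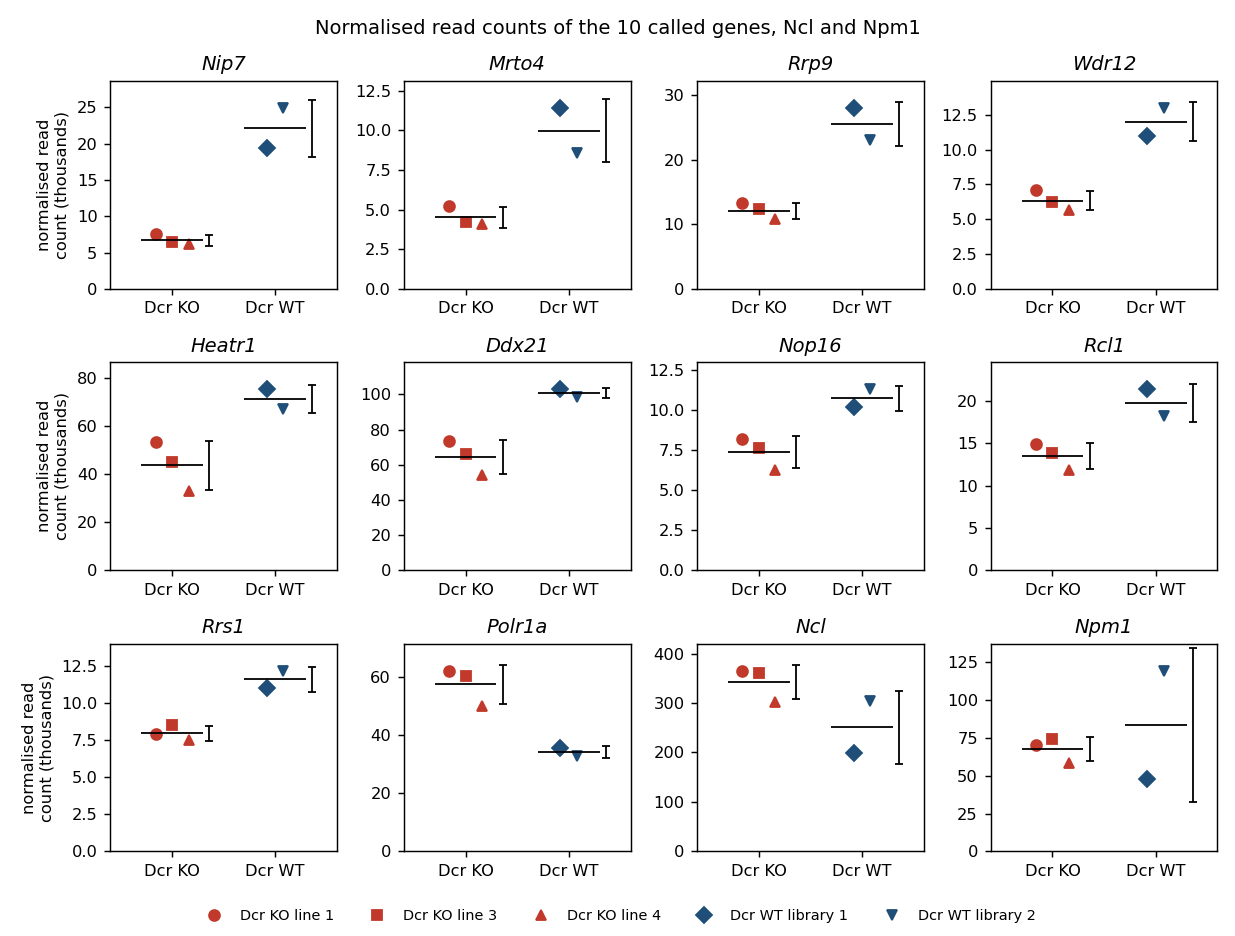
Normalised read count, in units of 1000, of the 10 genes called in Dcr KO against Dcr WT and of Ncl and Npm1, 1 panel a gene. Points are libraries, horizontal lines are group means and bars span the mean ± 1 SD (n = 3 Dcr KO, n = 2 Dcr WT). In the 10 called genes the groups do not overlap, and in Npm1 the Dcr WT libraries stand at 47694 and 119051 on either side of all 3 Dcr KO lines.

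The Dcr KO lines were ordered alike in nearly all of these genes. Line 4 was the lowest of the 3 lines in 39 of the 39 genes, against 70.6% of the coding features at matched level. The median log2 ratio of the 39 genes to the Dcr WT mean was −0.08 in line 1, −0.19 in line 3 and −0.47 in line 4. For the coding features at matched level the same medians were 0.19, 0.12 and 0.01. Line 4 was also the line with the lowest Myc count, 443, and the part of Myc in this order was not tested. Taken as a share of coding reads, the 39 genes made up 1.02%, 0.984% and 0.892% in Dcr KO lines 1, 3 and 4, against 1.05% and 1.13% in Dcr WT libraries 1 and 2. No line reached the lower of the Dcr WT shares.

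The other 136 ribosome assembly genes gave a wider view of the same pathway. Of these, 55 were lower in Dcr KO, 5 were higher and 76 did not pass (limma). The share lower was 40.4%, beside 14.8% of all features, 22.9% of coding features and 14.5% of coding features at matched level. That last background has a floor at a mean of 6698. Some of the 136 genes lie below it, down to 1161, so the 14.5% does not match them in level. The median log2 fold change was −0.29, and all 3 Dcr KO lines lay below both Dcr WT libraries for 82 of the 136 genes and above them for 9, or 60.3% and 6.62%, beside 27.4% and 30.0% of all features and 35.5% and 31.3% of coding features. These genes took 1.30%, 1.26% and 1.20% of coding reads in Dcr KO lines 1, 3 and 4, against 1.67% and 1.66% in Dcr WT libraries 1 and 2. Without Dcr KO line 3 there were 27 lower calls and 1 higher, and without line 4, 32 lower and 4 higher. Without line 1 there were 46 lower and 3 higher.

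By role as assigned here, the polymerase I group of 13 genes, with Nop53 counted in it, held 6 falls and 1 rise. Nop53 itself was not called. Of 11 snoRNP genes, 9 fell and 0 rose. Of 44 small-subunit genes, 17 fell and 2 rose. Of 46 large-subunit genes, 14 fell and 1 rose. Of 22 nucleases and exosome subunits, 9 fell and 1 rose. The shares lower, in this order of roles, were 46.2%, 81.8%, 38.6%, 30.4% and 40.9%. They stand beside 14.8% of all features and 22.9% of coding features. The polymerase I genes thus moved in both directions: Polr1d, a subunit shared with RNA polymerase III, fell with a log2 fold change of −1.11 (limma adjusted p = 0.000798), whereas Polr1f, a subunit of the polymerase stalk, rose with 0.58 (limma adjusted p = 0.0113). The Polr1f call was lost without line 3 (adjusted p = 0.0747).

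**Figure D2:**
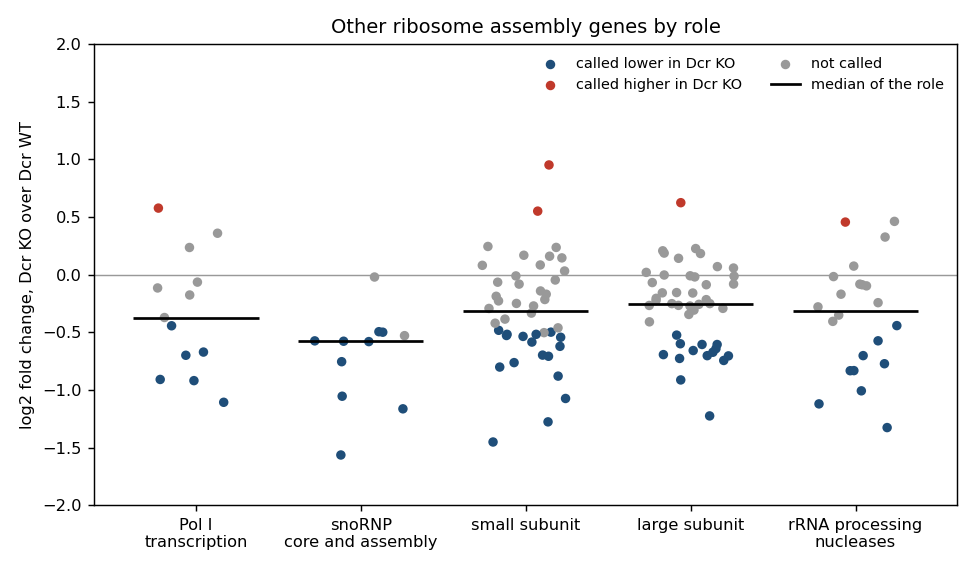
Log2 fold change (Dcr KO over Dcr WT) of the 136 other ribosome assembly genes by role. Each point is a gene, coloured by its limma call, and black lines are medians of the role. Points below 0 prevail in every role, with 55 genes called lower and 5 called higher.

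The 5 called genes with the largest falls were Nop10, Rrp36, Exosc5, Imp3 and Nle1, and each was called with any single library left out. Nop10, a core protein of the box H/ACA snoRNPs, had 8455, 8298 and 7958 in Dcr KO lines 1, 3 and 4, against 23755 and 24921 in Dcr WT libraries 1 and 2, or −1.56 ± 0.13 (SE) as a log2 fold change (limma adjusted p = 6.85e-05). Rrp36, an early small-subunit factor in yeast, had 3013, 3168 and 2868 in Dcr KO lines, against 8218 and 8257 in Dcr WT libraries (−1.45 ± 0.14, limma adjusted p = 0.000138). Replicates lay close together in both genes and the genotypes far apart. Exosc5, a ring subunit of the RNA exosome, had 8104, 7977 and 7437 in Dcr KO lines, against 21536 and 17898 in Dcr WT libraries (−1.33 ± 0.14, limma adjusted p = 0.000238). Imp3, which binds the U3 snoRNA together with Imp4 and Mphosph10, had 4747, 4516 and 4373 in Dcr KO lines, against 11298 and 10710 in Dcr WT libraries (−1.28 ± 0.14, limma adjusted p = 0.000226). Its partners Imp4 (−0.01) and Mphosph10 (0.24) did not pass. Nle1, whose yeast counterpart is pulled from the large subunit by the remodelling enzyme Mdn1, had 5201, 5329 and 3750 in Dcr KO lines, against 11195 and 10781 in Dcr WT libraries (−1.22 ± 0.18, limma adjusted p = 0.00113).

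The 5 genes that rose were Utp3, Sbds, Polr1f, Esf1 and Xrn2. Utp3, a component of the early small-subunit particle, had 24950, 23221 and 20411 in Dcr KO lines, against 10183 and 13629 in Dcr WT libraries (log2 fold change 0.95 ± 0.17, SE; limma adjusted p = 0.00282). It stayed called with any single library left out. Sbds, which helps to release Eif6 from the large subunit, rose with 0.62 ± 0.15 (limma adjusted p = 0.0140), a call lost without line 1 (adjusted p = 0.0676) or line 3 (0.0827). Eif6 itself fell (−0.74, limma adjusted p = 0.00308). Esf1, a small-subunit factor in yeast, rose with 0.55 ± 0.16 (limma adjusted p = 0.0243), lost without line 3 (adjusted p = 0.119), line 4 (0.0803) or Dcr WT library 1 (0.0555). Xrn2, a 5′ to 3′ exonuclease, rose with 0.46 ± 0.14 (limma adjusted p = 0.0335), lost without line 1 (adjusted p = 0.106), line 3 (0.158) or Dcr WT library 2 (0.0831).

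Partners in one complex did not always move together. For 8 pairs of genes, chosen after their values were seen, the ratio of normalised read counts within each library was compared between genotypes. The level of such a ratio depends on the 2 gene lengths. Its change can also carry the trend of fold change over gene span, given below, where the 2 genes differ in span. The part of span in these ratios was not tested. In all 8 pairs the Dcr KO lines and the Dcr WT libraries did not overlap, and since the pairs were picked for their difference no test is given. Among the members of the H/ACA snoRNP, Nop10, Nhp2 and Gar1 fell (log2 fold changes −1.56, −1.16 and −0.58, with limma adjusted p of 6.85e-05, 0.00257 and 0.0127), the last not without line 3 (adjusted p = 0.0565), whereas Dkc1 did not pass. Nop10 over Dkc1 was 0.220, 0.215 and 0.245 in Dcr KO lines 1, 3 and 4, against 0.742 and 0.670 in Dcr WT libraries 1 and 2. The ratio in Dcr KO was 0.321 times that in Dcr WT, on means.

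Rrp9 over Nop58, a U3-specific protein over a protein common to all box C/D snoRNPs, was 0.270, 0.254 and 0.278 in Dcr KO lines, against 0.837 and 0.691 in Dcr WT libraries. Nip7 over its human binding partner Ftsj3 was 0.144, 0.131 and 0.142 in Dcr KO lines, against 0.460 and 0.4999 in Dcr WT libraries. The 3 Dcr KO lines, which differed in the level of most genes of the list, were close to each other in these ratios. Polr1a over Polr1b was 1.59, 1.54 and 1.67 in Dcr KO lines, against 0.933 and 0.931 in Dcr WT libraries. Nop58 over Nop56 was 0.659, 0.698 and 0.830 in Dcr KO lines, against 0.435 and 0.506 in Dcr WT libraries. Within PeBoW, Wdr12 over Pes1 was 0.167, 0.169 and 0.185 in Dcr KO lines, against 0.253 and 0.351 in Dcr WT libraries. Bop1 over Pes1 moved less, with 0.999, 1.02 and 1.06 in Dcr KO lines against 1.31 and 1.26 in Dcr WT libraries. Imp3 over Imp4 was 0.145, 0.149 and 0.189 in Dcr KO lines, against 0.360 and 0.411 in Dcr WT libraries.

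**Figure D3:**
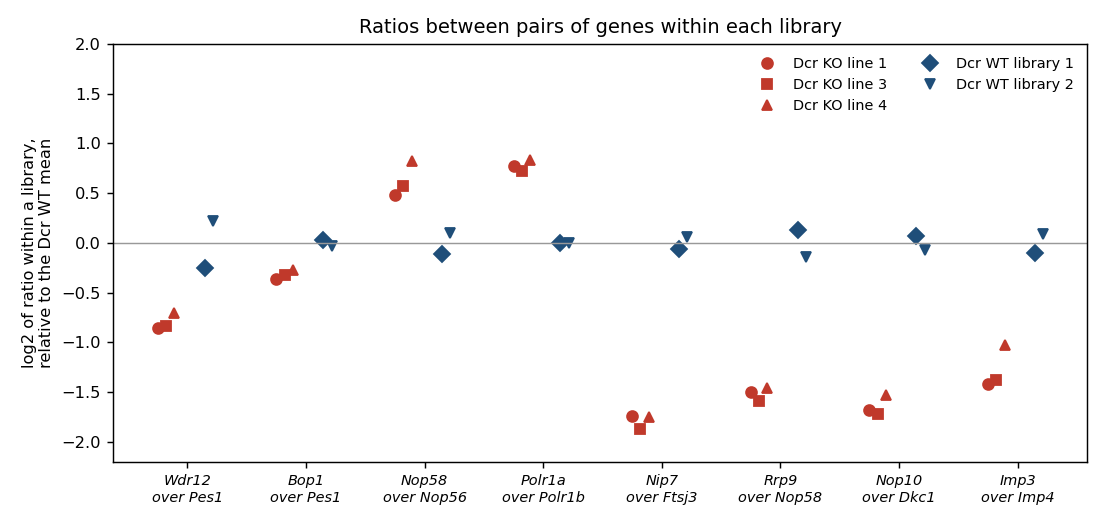
Ratio of normalised read counts of 8 pairs of genes within each library, as log2 relative to the Dcr WT mean of the pair. Each point is a library, with Dcr KO left of Dcr WT in each pair. Polr1a over Polr1b and Nop58 over Nop56 lie above the Dcr WT libraries in all 3 Dcr KO lines, and the other 6 pairs lie below.

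Calls in Dcr KO went with the span of the gene on the genome, introns included, as RefSeq gives it for GRCm38.p6. Among the coding features at matched level, split into 4 bands of equal size by span, lower calls took 26.6%, 17.2%, 9.58% and 4.61% in order from the shortest to the longest, and higher calls 15.1%, 21.0%, 27.8% and 46.8%. The upper limits of the first 3 bands were 13.0, 28.6 and 62.1 kb. Ribosome biogenesis genes are short, with a median span of 12.9 kb, and 20 of the 39 lay in the shortest band. Lower calls were made for 5 of these 20 genes, for 2 of 10 in the next band, for 2 of 7 in the third and for 0 of 2 in the longest, where Polr1a, with 70.4 kb, was called higher. Of the 112 other assembly genes at matched level, lower calls took 25 of 49 in the shortest band, 9 of 40 in the next, 7 of 17 in the third and 1 of 6 in the longest. With the trend over span removed from every library, an alternative added after seeing the data, 9 of the 39 genes were lower and 6 higher, and the median log2 fold change was −0.04. Nop16 and Rrs1 were then not called (limma adjusted p = 0.110 and 0.172), and Bop1 (lower), Rrp12 (lower), Ltv1, Ncl, Nop58, Pno1 and Tsr1 (the last 5 higher) were. Of the other assembly genes, 54 were lower and 10 higher with the trend removed. This fit covered 16086 coding features, and the share of them called was not computed, so these counts stand without a background.

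**Figure D4:**
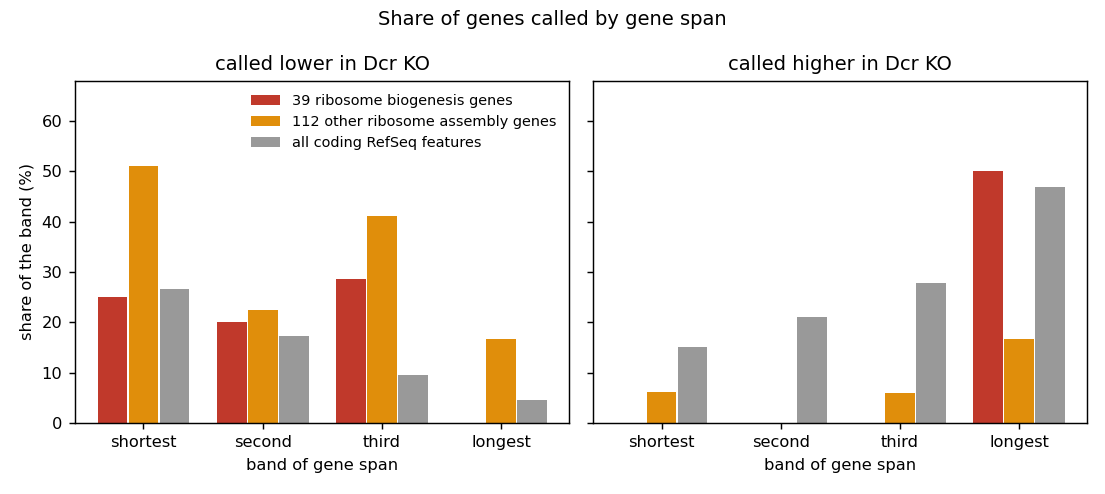
Share of genes (%) called lower (left) and higher (right) in Dcr KO, by band of gene span among coding RefSeq features at matched level. Bars are the 39 ribosome biogenesis genes, the 112 other assembly genes at matched level and all coding features of the band. Over all coding features the share lower is 26.6% in the shortest band and 4.61% in the longest.

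Deletion of cMyc was compared in 1 library of each genotype, which allows no test, so ratios are given with exact 95% intervals that cover counting error only. Neither a fall nor a rise past 1.5-fold was seen in any of the 39 genes, where 4.68% of 13186 coding RefSeq features with at least 20 reads over both libraries were lower by 1.5-fold in cMyc KO and 6.74% higher (9.09% and 6.8% of all 17631 features). The log2 ratio ran from −0.48 (Ncl) to 0.48 (Bysl), with a median of 0.14, against 0.07 over all features and 0.11 over coding features. There were 27 genes above 0 and 12 below. These backgrounds were not matched for span. Coding features at matched level had cMyc medians of 0.21, 0.14, 0.06 and 0.02 from the shortest band of span to the longest. The 39 genes had 0.25 (20 genes), −0.22 (10), 0.13 (7) and 0.15 (2). With the trend over span removed the median of the 39 was 0.17, with 27 above 0 and 12 below. No background is given for that value. The counting interval lay above a ratio of 1 for 24 genes, below it for 9 and held 1 for 6, where 35.9% of coding features lay above and 16.4% below. The 39 genes had 544 to 27740 reads in cMyc flox, whereas the coding features reach down to 20 reads over both libraries. Intervals are wider and ratios noisier at few reads, so these shares and the 1.5-fold shares are not matched for reads. Scaling moved every ratio alike: with total reads as the scale each log2 ratio moved by −0.14, which left 20 genes above 0 and 19 below, and with coding reads by −0.11, which left 22 above and 17 below. The 7 genes that crossed 0 with total reads were Ftsj3, Heatr1, Nat10, Noc3l, Tsr1, Utp20 and Wdr12.

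Ncl, Gnl3, Npm1 and Ddx21, which form the group of other nucleolar proteins, were below a ratio of 1 in cMyc KO under the deposited scaling and under each of 3 others. Ncl had a normalised read count of 20967 in cMyc KO, against 29235 in cMyc flox, a ratio of 0.717 (interval 0.705 to 0.730), which passed 1.5-fold when libraries were scaled by total or coding reads. Gnl3 had 2263 in cMyc KO, against 3070 in cMyc flox (ratio 0.737, 0.698 to 0.778). Npm1 had 14336 in cMyc KO, against 18514 in cMyc flox (0.774, 0.758 to 0.791). Ddx21 had 6771 in cMyc KO, against 8319 in cMyc flox (0.814, 0.788 to 0.840). These 4 included the lowest ratio of the list. Nop58 and Wdr43, a small-subunit factor that joins Heatr1 in the first complex, were the other genes among the 5 lowest, with 2387 in cMyc KO against 3135 in cMyc flox for Nop58 (0.761, 0.722 to 0.803). Wdr43 had 3229 in cMyc KO, against 4187 in cMyc flox (0.771, 0.737 to 0.807).

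At the other end, Bysl had 2084 in cMyc KO, against 1492 in cMyc flox, a ratio of 1.40 (interval 1.31 to 1.49). Bop1 had 5106 in cMyc KO, against 3684 in cMyc flox (1.39, 1.33 to 1.45). Imp4 had 2577 in cMyc KO, against 1986 in cMyc flox (1.30, 1.22 to 1.38). All 3 stayed above a ratio of 1 under every scaling tried. The 4 polymerase I genes were all higher, with ratios between 1.14 (Tcof1) and 1.20 (Mybbp1a), and remained above 1 under each scaling. Of the 15 small-subunit genes, 11 were above 0 on the log2 scale, but 7 with total reads as the scale, and of the 12 large-subunit genes 10 and 7. Taken as a share of coding reads, the 39 genes made up 1.05% in cMyc KO and 1.13% in cMyc flox. This share counts reads, so abundant genes weigh most, among them Ncl (ratio 0.717), Npm1 (0.774) and Mybbp1a (1.20). Counted by gene, with coding reads as the scale, 22 of the 39 were above 0 on the log2 scale and 17 below.

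Of the 136 other assembly genes, 3 were lower by 1.5-fold or more in cMyc KO and 0 higher. This is 2.21% lower, beside 4.68% of coding features and 9.09% of all features, which again were not matched for reads. With total reads as the scale there were 5, with Lyar and Mtrex added. Mphosph10, the partner of Imp3 and Imp4, had 605 in cMyc KO, against 1109 in cMyc flox (ratio 0.546, interval 0.495 to 0.602). Esf1 had 513 in cMyc KO, against 920 in cMyc flox (0.557, 0.501 to 0.620). Krr1, a small-subunit factor, had 603 in cMyc KO, against 959 in cMyc flox (0.628, 0.568 to 0.695). In Dcr KO none of these 3 fell: Esf1 rose, as above, and Mphosph10 and Krr1 had log2 fold changes of 0.24 and −0.17 (limma adjusted p = 0.235 and 0.376).

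**Figure D5:**
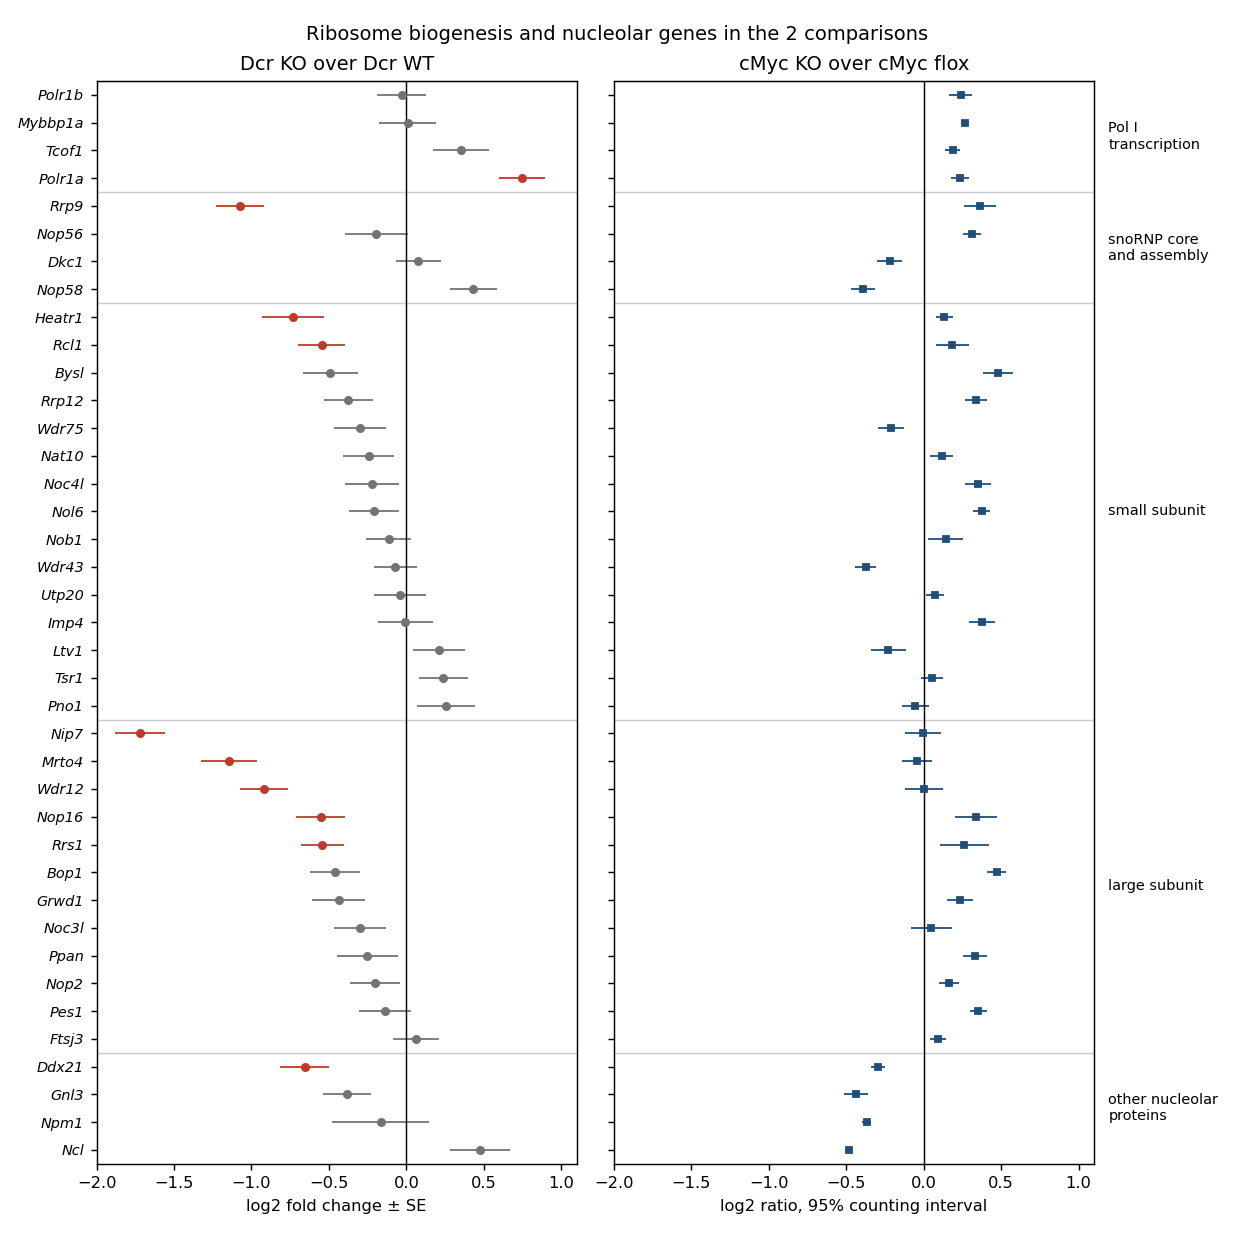
The 39 ribosome biogenesis genes by role. On the left is the log2 fold change of Dcr KO over Dcr WT with its SE, red where called by limma; on the right is the log2 ratio of cMyc KO over cMyc flox with its 95% counting interval. The genes that fell most in Dcr KO (Nip7 −1.72, Mrto4 −1.14) stand near 0 on the right, and the 4 other nucleolar proteins (bottom) all stand below 0 on the right.

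Set side by side, the comparisons share no library. The 9 genes that fell in Dcr KO had log2 ratios between −0.30 (Ddx21) and 0.37 (Rrp9) in cMyc KO over cMyc flox, with a median of 0.13, 6 above 0 and 3 below. Nip7, with −1.72 in Dcr KO, had 1161 in cMyc KO against 1166 in cMyc flox (ratio 0.996, interval 0.918 to 1.08). Mrto4, with −1.14 in Dcr KO, had 1705 in cMyc KO against 1757 in cMyc flox (0.971, 0.908 to 1.04). Both intervals held 1. Rrp9, with −1.07 in Dcr KO, had 1724 in cMyc KO against 1337 in cMyc flox (1.29, 1.20 to 1.38). Over the 39 genes the Dcr log2 fold change and the cMyc log2 ratio had a Pearson r of −0.17 and a Spearman rho of −0.21, and over coding features at matched level r was −0.15. Genes are points that share libraries and depth within each comparison, so these values describe the list only. From the shortest to the longest band of span, the median of coding features at matched level rose from −0.14 to 0.41 in Dcr KO. In cMyc KO it fell from 0.21 to 0.02. The part of span in these correlations was not tested. The Polr1a over Polr1b ratio, higher in Dcr KO, was 1.67 in cMyc KO and 1.67 in cMyc flox. Nop58 over Nop56, also higher in Dcr KO, was 0.441 in cMyc KO, against 0.721 in cMyc flox. Of the 6 ratios lower in Dcr KO, 3 were also lower in cMyc KO: Wdr12 over Pes1 was 0.179 in cMyc KO against 0.228 in cMyc flox, Imp3 over Imp4 was 0.241 against 0.279, and Nip7 over Ftsj3 was 0.189 against 0.202. The other 3 were higher in cMyc KO, with 0.722 against 0.427 in cMyc flox for Rrp9 over Nop58, 0.846 against 0.779 for Bop1 over Pes1 and 0.316 against 0.293 for Nop10 over Dkc1.

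Promoters are shown because Myc, with its partner Max, binds the E-box CACGTG, and Myc was low in both Dcr KO and cMyc KO. RefSeq promoter windows of 300 bases (250 before to 50 after the start of the gene, GRCm38.p6) matched 35 of the 42 genes by symbol. Shares are counted by gene, and some genes have more than 1 start and so more than 1 window. The E-box, which is its own reverse complement, was found in 10 of these 35 genes, or 28.6%. It was found in 15.8% of other assembly genes, 10.8% of coding genes tested and 8.09% of all genes with a window. The 10 E-boxes follow with up to 12 bases on each side, cut where the window ends, on the strand of the gene, with the E-box in capitals.
Imp4 (chr1:34439696-34439725, plus strand): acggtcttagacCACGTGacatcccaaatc
Nop2 (chr6:125131811-125131840, plus strand): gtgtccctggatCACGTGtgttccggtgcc
Grwd1 (chr7:45830740-45830767, minus strand): gggccggagtcgCACGTGtgaaaccgga
Ltv1 (chr10:13193092-13193121, minus strand): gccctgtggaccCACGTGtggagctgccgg
Utp20 (chr10:88826765-88826789, minus strand): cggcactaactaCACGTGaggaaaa
Pes1 (chr11:3963965-3963994, plus strand): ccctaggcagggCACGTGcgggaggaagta
Pno1 (chr11:17211540-17211564, minus strand): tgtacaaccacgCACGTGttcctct
Mybbp1a (chr11:72441355-72441376, plus strand): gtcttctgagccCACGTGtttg
Tsr1 (chr11:74898092-74898121, plus strand): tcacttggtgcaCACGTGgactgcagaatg
Wdr43 (chr17:71616220-71616249, plus strand): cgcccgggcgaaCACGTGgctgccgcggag
In 8 of the 10 the E-box lay after the start of the gene, and in Imp4 and Nop2 it lay before it, 121 and 60 bases upstream.

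Among the 39 genes, none of the 9 that were lower in Dcr KO held the E-box in this window, 8 of the 9 having a window. Among the other assembly genes, 6 of 18 with the E-box were lower (Exosc5, Nle1, Tex10, Tsr2, Utp25 and Utp4) and 40 of 96 without it, with median log2 fold changes of −0.32 and −0.28. The 10 genes of the list with it had a median log2 fold change of −0.02 in Dcr KO over Dcr WT, and the 23 measured genes without it −0.30. In cMyc KO over cMyc flox the median log2 ratio was 0.12 in both sets. No match says only that these letters are not in this window, and binding was not measured here. The windows of the gene that fell most, Nip7, and of the gene that rose, Polr1a, are given in full for comparison. The 7 letters CCGGAAG, a core of ETS factor sites, searched on both strands, are in capitals, and they occur 2 times in Nip7 and in no place in Polr1a.
Nip7 (chr8:107056627-107056926, plus strand): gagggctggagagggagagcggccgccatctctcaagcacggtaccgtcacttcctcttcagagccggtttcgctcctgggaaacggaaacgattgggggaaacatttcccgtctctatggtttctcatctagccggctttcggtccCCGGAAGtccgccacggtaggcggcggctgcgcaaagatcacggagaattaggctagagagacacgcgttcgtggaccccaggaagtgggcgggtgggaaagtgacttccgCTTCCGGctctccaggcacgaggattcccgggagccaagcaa
Polr1a (chr6:71908803-71909102, plus strand): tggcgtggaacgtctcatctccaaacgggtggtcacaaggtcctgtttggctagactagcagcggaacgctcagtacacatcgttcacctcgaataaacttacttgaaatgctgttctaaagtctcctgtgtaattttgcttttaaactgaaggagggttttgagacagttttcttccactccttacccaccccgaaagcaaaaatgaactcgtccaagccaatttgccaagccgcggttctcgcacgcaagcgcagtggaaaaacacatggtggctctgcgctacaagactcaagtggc
Counted by gene, the ETS letters occurred in 10 of the 35 listed genes (28.6%) and in 46.5% of other assembly genes. They occurred in 16.2% of coding genes tested and 9.93% of all genes with a window. They were in 2 of the 8 listed genes lower in Dcr KO with a window, and in 8 of the 33 measured genes. The lower genes of the list thus did not stand apart in these letters, and Nip7 and Polr1a are single examples.

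A further property that the list did not use is the hosting of small nucleolar RNA genes, which in mammals often lie within the introns of genes for ribosome production. By RefSeq (GRCm38.p6), 8 of the 39 genes hold 21 snoRNA genes within their span, namely Dkc1, Gnl3, Ncl, Nop56, Nop58, Ppan, Tsr1 and Wdr43. This split was looked at after the values were seen. None of the 8 hosts was called in Dcr KO, and their median log2 fold change was 0.00, against −0.24 over the 31 other genes, which hold all 10 calls. Among coding features at matched level, 18 of 172 hosts were lower and 55 higher, with a median of 0.16, and 812 and 1529 of 5548 other genes, with a median of 0.11. Of 2 hosts among the other assembly genes, Taf1d was lower and Nop53 was not called. Polr1f, Polr1g, Polr1h and Znf622 were not found by symbol, so whether they are hosts was not examined. In cMyc KO over cMyc flox, the hosts had a median log2 ratio of −0.30 with 5 of 8 below 0, against 0.19 with 7 of 31 below 0 for the others. In the same features, the 172 hosts had a cMyc median of 0.02 with 47.7% below 0, and 5547 other genes a median of 0.11 with 33.8% below 0. The snoRNAs themselves are not polyadenylated, and their levels were not analysed here.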

How the data were processed

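The authors deposited 1 table of normalised signal for the Dcr libraries and 1 for the cMyc libraries. As the values show, each is a read count divided by 1 factor per library. Whole reads could be recovered for 100% of Dcr values and 99.997% of cMyc values within 0.01 read, and 0 value columns were left without a sample. The submitters' processing notes list TopHat, Bowtie and DESeq, and mm9 as build, without role or version. Neither the gene models nor any use of strand in counting is given in the sources used, so called genes that overlap another coding gene are uncertain (1 of 10 in the list, Wdr12 with Carf, and 17 of 60 other assembly genes, among them Nhp2 with Rmnd5b). Polr1f and Polr1h, counted among the 60, were not found by symbol in that search, so their overlaps were not examined.

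RefSeq identifiers were given symbols from GRCm38.p6 (19362 of 19683 in the Dcr table, 16246 of 16484 in the cMyc table), whose coordinates are given for promoter windows only. Dcr KO and Dcr WT were compared with limma 3.58.1 (R 4.3.3, with trend) on log2(value + 1) for features at 1 or more in at least 2 libraries, and fold changes are on that scale. The plan, written for either unit, assigned limma to normalised values. edgeR 4.0.16 and DESeq2 1.42.0 were run on the recovered reads, where they called 13060 and 13926 features, against 13444 with limma. The fits were also run on simulated data, whose settings and outcome are not given here, so that run does not support the calls. For cMyc, intervals are exact and conditional on the reads of both libraries.

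All genes of the list are named by role; values per library are given for called genes, for the 5 lowest and 3 highest in cMyc KO, for the 3 most abundant, and for the 5 other assembly genes with the largest calls each way. Further genes (Polr1d, Nhp2, Gar1, Eif6, Tcof1 and partners) were chosen after their values were seen. The genes and lists were chosen with earlier results of these data known. A p-value here reflects only how these 5 libraries vary, which may be technical. The removal of the trend over gene span was chosen after seeing the data, and a fit without 1 Dcr WT library assumes that the other varies like the Dcr KO libraries.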

Additional observations from a re-analysis of the deposited data

How the results depend on the processing

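No paired analysis was possible because Dcr KO and Dcr WT share only 1 replicate number, and the cMyc groups have 1 library each. Summing the features of a symbol was not run, since each gene had 1 feature. Of the counts in Dcr KO, the 9 lower genes of the list became 3 without the limma trend, 15 when scaled by total reads, and 4 to 13 with 1 library left out (4 without line 3, 5 without line 4). The 1 higher gene became 0 without the trend, 2 with edgeR, DESeq2, a pseudocount of 10, a filter of 10 in 3 libraries, total or coding-median scaling or coding features only, 3 with upper-quartile scaling, 6 with the span trend removed, and 1 to 3 with 1 library left out. Lower calls, 90% of the calls of the list (9 lower, 1 higher), were 75% with upper-quartile scaling (9 lower, 3 higher). They were 60% with the span trend removed (9 lower, 6 higher) and 71.4% without line 4 (5 lower, 2 higher). Over all features, higher calls were 53.3% of calls in the main fit and 58.5% with upper-quartile scaling. Lower calls over all features went from 6273 to 6957 when scaled by total reads. For the other settings no such background is given. The 55 lower assembly genes became 11 without the trend and 27 to 54 with 1 library left out; the 5 higher became 0, 8 with coding-median scaling, 10 with the span trend removed and 1 to 6. The median of −0.21 stayed between −0.31 and −0.04 over all 17 settings.

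In cMyc KO, the 0 genes lower by 1.5-fold became 1 (Ncl) with total, coding-total or coding-median scaling and 5 at a smaller threshold (a ratio of 0.8 or below), and the 0 higher became 10 at the inverse of that ratio; the median of 0.14 became 0.0018 with total reads.

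With 1 library left out, 12 of the 39 genes changed sign in Dcr KO: Dkc1 (−0.031 to 0.19), Ftsj3 (−0.057 to 0.19), Imp4 (−0.14 to 0.14), Mybbp1a (−0.12 to 0.15), Noc4l (−0.44 to 0.0027), Nol6 (−0.43 to 0.0060), Nop56 (−0.32 to 0.011), Npm1 (−0.83 to 0.49), Polr1b (−0.097 to 0.0998), Ppan (−0.54 to 0.034), Utp20 (−0.15 to 0.11) and Wdr43 (−0.12 to 0.0053). Total reads turned Dkc1 (−0.0034), Ftsj3 (−0.016) and Mybbp1a (−0.073). The upper quartile turned Imp4 (0.073), Polr1b (0.050), Utp20 (0.038) and Wdr43 (0.0080), and coding-median scaling Imp4 (0.031) and Polr1b (0.0080). Imp4 also turned with edgeR (0.012) and DESeq2 (0.0034). Removal of the span trend turned Imp4 (0.26), Nob1 (0.055), Noc4l (0.060), Nol6 (0.0013), Nop56 (0.086), Npm1 (0.014) and Ppan (0.043).

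In cMyc KO, 7 genes turned negative with total reads, of which Ftsj3 (−0.048), Heatr1 (−0.0086), Nat10 (−0.025) and Utp20 (−0.070) had intervals above a ratio of 1. With coding-total and coding-median scaling 5 did, among them Ftsj3 (−0.015 and −0.016) and Utp20 (−0.037 and −0.038). The causes were not tested. There were 3 lines against 2 libraries in Dcr KO and Dcr WT, and 1 against 1 for cMyc.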
